A study of Oryza sativa Indica Group with 36 samples.

Results

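BGIOSGA032167 is the rice gene that the study's annotation calls a WAT1-related protein, a membrane transporter of the plant drug/metabolite transporter superfamily. It is 1 of 43254 genes in the deposited tables. It was chosen by its identifier, and because it was low in cold-treated plants and high in recovering plants across the 12 groups of the study, so its levels in cold, recovery and control plants are described here without a test. The name could not be checked, because no protein or DNA sequence of this gene was used here, and other WAT1-related genes were not analysed here.

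RNA from the stems and leaves of seedlings grown in nutrient solution to the four-leaf stage was sequenced from 2 cultivars of Oryza sativa Indica Group, the cold-tolerant DC907 and the cold-sensitive 9311, which the study describes as near-isogenic lines. In DC907 the groups were BCK (not cooled), BT1 and BT3 (1 and 3 days at 8 ℃), BT1H1 and BT1H3 (1 and 3 days of recovery at room temperature after 1 day of cold), and BT3H1 and BT3H3 (the same after 3 days of cold). In 9311 the groups were ACK, AT1, AT1H1, AT3 and AT3H1, named in the same way, and there was no 9311 group with 3 days of recovery. Each of the 12 groups had 3 libraries, which the study calls biological replicates, so 21 libraries were of DC907 and 15 of 9311. The labels give the genotype of every plant as WT, and each library holds RNA of the whole shoot, with all its cell types mixed.

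The WAT1 gene (WALLS ARE THIN1), from which the family takes its name, was described in Arabidopsis. There its protein sits in the membrane of the vacuole, exports stored auxin to the cytoplasm and is needed for the thick secondary walls of stem fibres. The family is specific to plants, and several of its members in Arabidopsis, the UMAMIT proteins, carry amino acids across membranes. Auxin is the growth hormone that drives cell elongation, and its local amount is set by synthesis, by breakdown and by transport, including transport into and out of stores such as the vacuole. What the rice protein carries is not given in the sources used here.

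The libraries had total gene counts of 10176660 to 18789555, and the median total was 16621963. The lowest total belonged to replicate 3 of BT1, and the next lowest library had 14412904 counts. The libraries labelled AT3 and AT3H1 went against their cultivar label. Over genes whose 9 DC907 libraries of CK, T1 and T1H1 did not overlap the 9 9311 libraries, with a difference of at least 2 on the log2 scale, 88.5% to 92.3% of the 78 genes were on the DC907 side in the 3 AT3 libraries, and 82.1% to 96.2% in the 3 AT3H1 libraries. The share was 68.9% to 98.7% in the DC907 groups, against 5.81% to 29.5% in ACK, AT1 and AT1H1, where a group was scored with markers made without it. BGIOSGA032167 was not among these markers. AT3 and AT3H1 are therefore called as labelled throughout. The levels by stage and the correlations of the most alike and most opposite genes are also given without them. The correlations of the hormone genes were computed only with them.

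The level of BGIOSGA032167 was low in every cold group, intermediate in the plants that were not cooled, and highest in most of the recovery groups. Levels are given in FPKM, fragments per kilobase of gene scaled to the library total, which the authors computed with a length of 1095 bases for this gene. In the shoots of plants sampled in the cold, the 12 libraries held 0.0545 to 5.57 FPKM with a median of 1.75, which was 1 to 91 counts. In the 18 recovery libraries the level was 8.17 to 117 FPKM with a median of 30.5, and in the 6 control libraries it was 5.41 to 24.0 FPKM with a median of 16.1. All 12 cold libraries lay below the lowest recovery library, and 11 of them lay below the lowest control library. Without AT3, all 9 cold libraries, at no more than 2.78 FPKM, lay below the lowest control library. Of the 18 recovery libraries, 13 lay above the highest control library, and without AT3H1 it was 10 of 15. In mixed shoot tissue, fewer cells that express a gene and less RNA per cell cannot be told apart.

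**Figure D1:**
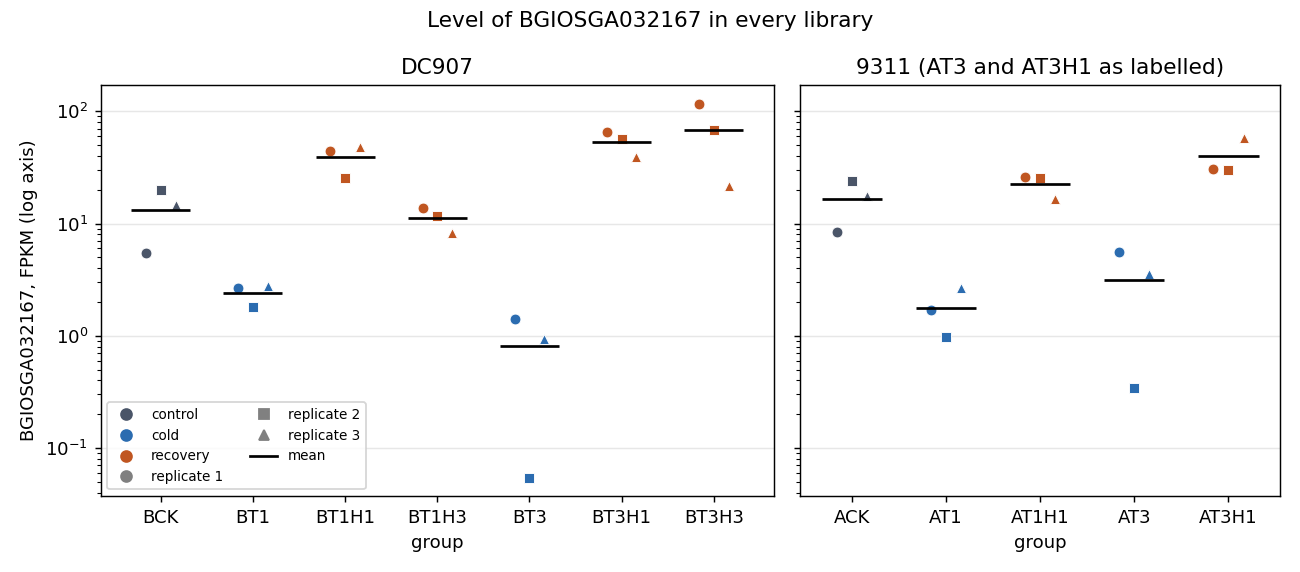
Level of BGIOSGA032167 in FPKM on a log axis in each of the 36 libraries, by group, with DC907 in the left panel and 9311 in the right panel. Points are libraries, with a shape for each replicate number and a colour for control, cold or recovery, and the black bar is the mean of the 3 libraries of a group. The cold libraries lie between 0.0545 and 5.57 FPKM and the recovery libraries between 8.17 and 117 FPKM.

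In DC907 the gene was sampled at more stages than in 9311, and its level went down in the cold and up after it at both lengths of cold. Uncooled BCK plants had 5.41, 19.7 and 14.6 FPKM in replicates 1, 2 and 3. After 1 day at 8 ℃, BT1 plants had 2.66, 1.80 and 2.78 FPKM, a narrow range that lay below all 3 control libraries. After 1 day of recovery, BT1H1 plants had 43.9, 25.3 and 47.8 FPKM, each above the highest control library. After 3 days of recovery, BT1H3 plants had 13.6, 11.7 and 8.17 FPKM, inside the range of the control.

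The longer cold treatment gave both the lowest and the highest group of the study. BT3 plants had 1.42, 0.0545 and 0.934 FPKM after 3 days at 8 ℃. These values rest on 26, 1 and 17 counts, and the exact 95% Poisson interval of the single count in replicate 2 is 0.0253 to 5.57 counts, so the level within that library is poorly determined. Such intervals cover counting error only. After 1 day of recovery, BT3H1 plants had 65.3, 56.1 and 38.8 FPKM. After 3 days, BT3H3 plants had 117, 68.0 and 21.4 FPKM, the widest range in FPKM of any group, and replicate 3 lay close to the highest BCK library at 19.7 FPKM. That spread was not one of low counts, since the BT3H3 libraries held 2062, 1227 and 440 counts of the gene.

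In 9311, uncooled ACK plants had 8.49, 24.0 and 17.5 FPKM. AT1 plants had 1.70, 0.980 and 2.66 FPKM after 1 day of cold, all below the control. AT1H1 plants, with 26.0, 25.4 and 16.5 FPKM after 1 day of recovery, overlapped the control range. The libraries labelled AT3 had 5.57, 0.344 and 3.55 FPKM from 91, 6 and 61 counts, and those labelled AT3H1 had 30.8, 30.1 and 58.2 FPKM. In both groups cooled for 3 days, BT3 and AT3 as labelled, replicate 2 had the lowest level of its group.

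Ordered by mean FPKM (± SD, n = 3), the groups were BT3 at 0.802 ± 0.691, AT1 at 1.78 ± 0.841, BT1 at 2.41 ± 0.533, AT3 as labelled at 3.16 ± 2.63, BT1H3 at 11.2 ± 2.77, BCK at 13.3 ± 7.25, ACK at 16.7 ± 7.79, AT1H1 at 22.6 ± 5.37, BT1H1 at 39.0 ± 12.1, AT3H1 as labelled at 39.7 ± 16.0, BT3H1 at 53.4 ± 13.5 and BT3H3 at 68.8 ± 47.9. Of the 11 pairs of neighbours in this order, 10 overlapped between libraries. The exception was the step between BT1H3, at 8.17 FPKM or more, and AT3 as labelled, at 5.57 FPKM or less. By their means the cold groups thus lay below the others, a feature for which the gene was chosen. Single libraries still overlapped, with AT3 replicate 1 as labelled at 5.57 FPKM and BCK replicate 1 at 5.41 FPKM. Among the cold groups, and among the others, all neighbours overlapped. Set against the other genes, the mean of BGIOSGA032167 was above that of 49.4% of genes in BT3 and of 93.1% of genes in BT3H3.

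Against the control of the same cultivar, the mean level was 5.49-fold lower in BT1 and 16.5-fold lower in BT3. In 9311 it was 9.37-fold lower in AT1 and 5.28-fold lower in AT3 as labelled. The log2 fold changes from the counts, with their standard errors (edgeR, 6 libraries per fit), were -2.24 (SE 0.49) in BT1, -3.88 (SE 1.01) in BT3, -2.72 (SE 0.58) in AT1 and -2.28 (SE 0.99) in AT3 as labelled. With BCK as its control, AT3 had a log2 fold change of -1.99 (SE 0.98). In the 4 comparisons with the control of the same cultivar, every cold library lay below every control library. With BCK as its control, AT3 as labelled overlapped it, at 5.57 FPKM in AT3 replicate 1 against 5.41 FPKM in BCK replicate 1. Only 1.72% of 23290 genes had a lower fold change than BGIOSGA032167 in BT3, against 6.79% of genes in BT1, 6.43% in AT1 and 12.5% in AT3 as labelled. These contrasts chose the gene, and no call is read from them.

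During recovery the level relative to the control depended on the group. Compared with BCK, the mean level was 2.94-fold higher in BT1H1, 4.03-fold higher in BT3H1 and 5.19-fold higher in BT3H3, with log2 fold changes of 1.24 (SE 0.46), 1.66 (SE 0.42) and 2.15 (SE 0.66), and no library of these groups overlapped the control. BT1H3 was the exception in DC907, with a log2 fold change of -0.46 (SE 0.42) and overlapping libraries. In 9311, AT1H1 overlapped ACK with a log2 fold change of 0.30 (SE 0.39), whereas AT3H1 as labelled lay above ACK without overlap, at 1.30 (SE 0.43), and at 1.58 (SE 0.46) with BCK as its control.

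Compared with the cold group that came before it, every recovery group was higher, and in none of the 6 comparisons did libraries overlap. The mean was 16.1-fold higher in BT1H1 and 4.62-fold higher in BT1H3 than in BT1, and 66.6-fold higher in BT3H1 and 85.8-fold higher in BT3H3 than in BT3. It was 12.7-fold higher in AT1H1 than in AT1, and 12.6-fold higher in AT3H1 than in AT3, both as labelled. On the log2 scale (edgeR) the changes in DC907 were 3.59 (SE 0.38) for BT1H1, 1.90 (SE 0.33) for BT1H3, 5.62 (SE 0.85) for BT3H1 and 6.14 (SE 1.04) for BT3H3. The change of BT3H1 ranked 83 from the top among 23492 genes, and that of BT3H3 ranked 107 among 23007. The denominators of both are the 44 counts of the 3 BT3 libraries together. These are again the contrasts that chose the gene.

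**Figure D2:**
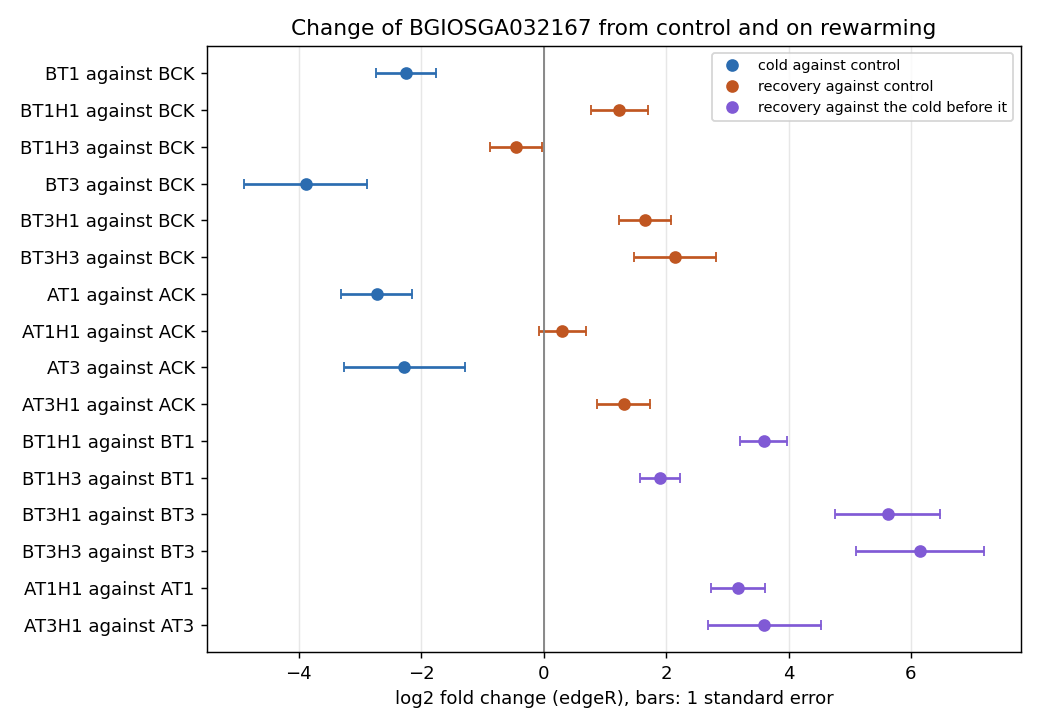
Log2 fold change of BGIOSGA032167 (edgeR; x axis) in each cold and recovery group against the control of its cultivar, and in each recovery group against the cold group before it, with DC907 above 9311 (AT3 and AT3H1 as labelled). Points are estimates from 6 libraries and bars are 1 standard error. The cold groups lie between -3.88 and -2.24, and the 6 changes from cold to recovery lie between 1.90 and 6.14.

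How the level differed with the length of the cold and of the recovery was tested within DC907, between cold groups or between recovery groups. The time from the start of cooling to harvest also differed between the groups compared. Each cultivar had 1 control group, so no control was matched to each harvest. The length of cold or recovery cannot be told apart from plant age or harvest day. The choice of the gene did not compare these groups with each other. It did use their levels in cold and recovery, so the tests and ranks are not independent of that choice. The 1 difference that passed the test was between BT3H3 and BT1H3, which had both recovered for 3 days. BT3H3 plants had 117, 68.0 and 21.4 FPKM, against 13.6, 11.7 and 8.17 FPKM in BT1H3 plants, so every library after the longer cold lay above every library after the shorter cold. The log2 fold change was 2.57 (SE 0.58), with an adjusted p of 0.0410 (quasi-likelihood test of edgeR, Benjamini-Hochberg adjustment over all genes), in a comparison in which 10.2% of genes were called. Only 110 of 22615 genes, this one included, had a fold change this high. The call was close to the threshold of 0.05. With all libraries kept, the adjusted p was between 3.30e-05 and 0.0662 over 6 alternatives and passed in 3 of them. With any 1 library left out the log2 fold change was 1.96 to 2.98 and the adjusted p 0.0129 to 0.137, and it passed in 1 of 6 fits, the one without BT3H3 replicate 3.

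**Figure D3:**
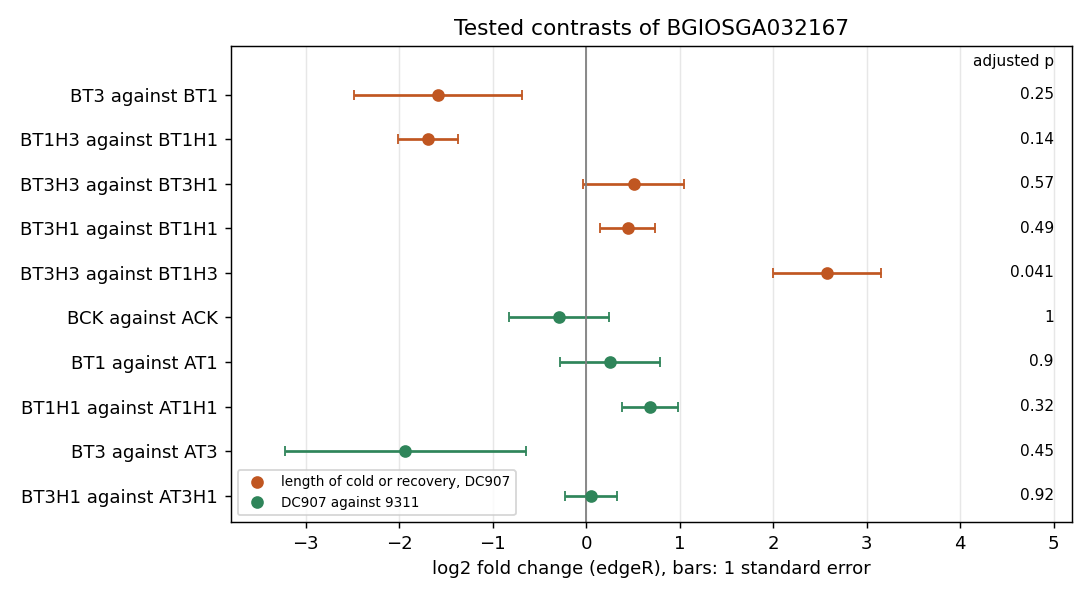
Log2 fold change of BGIOSGA032167 (edgeR; x axis) in the contrasts between lengths of cold or recovery in DC907 and between DC907 and 9311 at the same treatment (AT3 and AT3H1 as labelled), with the adjusted p of each at the right. Points are estimates from 6 libraries and bars are 1 standard error. BT3H3 against BT1H3, at 2.57 with an adjusted p of 0.041, is the 1 contrast of the 10 under 0.05.

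The other differences in time did not pass. In the cold, BT3 libraries (1.42, 0.0545 and 0.934 FPKM) lay below all BT1 libraries (2.66, 1.80 and 2.78 FPKM), with a log2 fold change of -1.59 (SE 0.90) and an adjusted p of 0.248 in the same edgeR test, where 17.5% of genes were called. After 1 day of cold, BT1H3 lay below BT1H1 without overlap, with 13.6, 11.7 and 8.17 FPKM against 43.9, 25.3 and 47.8 FPKM. This log2 fold change of -1.69 (SE 0.32) had an adjusted p of 0.142 in edgeR, which called 0.0218% of genes. Its unadjusted edgeR p of 0.00152 was lower than the 0.00325 of BT3H3 against BT1H3. Which of the 2 passed thus depended on the adjustment over all genes. Over the alternatives with all libraries kept, the adjusted p of BT1H3 against BT1H1 was 0.000332 in DESeq2 and 0.111 to 0.581 in edgeR. It was 0.362 under the replicate block and highest in the fit of all 36 libraries. After 3 days of cold, BT3H3 and BT3H1 overlapped, with a log2 fold change of 0.51 (SE 0.54) and an edgeR adjusted p of 0.568 (8.37% of genes called). BT3H1 and BT1H1 also overlapped, at 0.44 (SE 0.30) with an edgeR adjusted p of 0.487 (0.35% of genes called). The difference between the 2 changes over recovery, after the longer minus after the shorter cold, a contrast chosen after the values were seen, was 2.21 on the log2 scale (SE 0.70, edgeR adjusted p = 0.0953, 4.73% of genes called). With 1 library left out it was 1.59 to 2.63 with an adjusted p of 0.0326 to 0.207, under 0.05 only without BT3H3 replicate 3, and with all libraries kept the adjusted p was 0.0208 (DESeq2) to 0.408 (edgeR, all 36 libraries in 1 fit).

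Over several groups together, none of the 3 contrasts examined passed an exact permutation test, two-sided, in which labels were exchanged only within a stratum. The values were log2(FPKM + 0.1), and p-values were adjusted over the 3 contrasts. In DC907, 3 days of recovery against 1 day gave a mean log2 difference of -0.84 (exact permutation p = 0.125, adjusted p = 0.375, 12 libraries), made of -1.77 after 1 day of cold and 0.09 after 3 days. The p was 0.04 without BT3H3 replicate 1, where the difference was -1.11. For 3 days of cold against 1 day the mean difference was 0.27 (exact permutation p = 0.698, adjusted p = 0.698, 18 libraries). This average joined a difference of -1.99 in the cold, 0.47 after 1 day of recovery and 2.33 after 3 days.

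Between the cultivars no difference passed the test at CK, T1 or T1H1. None passed at T3 or T3H1 as labelled either, where the markers went against the 9311 label. Without cooling, BCK plants had 5.41, 19.7 and 14.6 FPKM, against 8.49, 24.0 and 17.5 FPKM in ACK plants, with a log2 fold change of -0.29 (SE 0.53) and an edgeR adjusted p of 1.0 (0.0439% of genes called). After 1 day of cold, BT1 against AT1 gave 0.26 (SE 0.54) with an edgeR adjusted p of 0.898 (0.0718% called). Without AT1 replicate 3, the library with the low mapping rate, it was 0.68 (SE 0.59) and did not pass either. One day of recovery later, BT1H1 plants had 43.9, 25.3 and 47.8 FPKM, against 26.0, 25.4 and 16.5 FPKM in AT1H1 plants. BT1H1 was higher in 7 of the 9 pairs of libraries, at a log2 fold change of 0.68 (SE 0.30) with an edgeR adjusted p of 0.316 (0.722% called). Over these 3 treatments DC907 exceeded 9311 by 0.29 in log2(FPKM + 0.1) (exact permutation p = 0.361, adjusted p = 0.542, 18 libraries), made of -0.39 without cooling, 0.50 in the cold and 0.76 in recovery.

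With the groups as labelled, BT3 against AT3 gave -1.93 (SE 1.29) and an edgeR adjusted p of 0.451, in a comparison that called 0.0% of genes and had 4108 genes at an unadjusted p under 0.05. BT3H1 against AT3H1 gave 0.05 (SE 0.27) and an edgeR adjusted p of 0.923 (0.0044% called). Nor did the interaction of cultivar and treatment pass, which sets the DC907 change from its control against that of 9311. It was 0.55 (SE 0.74, edgeR adjusted p = 0.925, 0.00403% called) at T1 and 0.92 (SE 0.63, edgeR adjusted p = 0.724) at T1H1, where 0.0% of genes were called and 2146 had an unadjusted p under 0.05. As labelled, it was -1.57 (SE 1.44, edgeR adjusted p = 0.740, 0.0478% called) at T3 and 0.34 (SE 0.60, edgeR adjusted p = 0.843, 0.0243% called) at T3H1. The standard errors leave room for differences of more than 1 on the log2 scale in most of these contrasts.

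The genes whose pattern was most like that of BGIOSGA032167 were found by Pearson's correlation of the 12 group means of log2(FPKM + 1), over 26525 other genes with a mean of at least 1 FPKM in at least 1 group. The correlations are descriptive, since the 12 points share libraries between genes and mostly separate cold from recovery. BGIOSGA022563 had r = 0.981 and BGIOSGA005578 had r = 0.978. Without AT3 and AT3H1 these were 0.980 and 0.978. Across the 36 libraries after each group's mean was removed they were only 0.122 and 0.137, so the likeness was between groups and not between the libraries of a group. In BT3H3, BGIOSGA022563 had 36.2, 34.2 and 31.8 FPKM in replicates 1 to 3, a narrow range beside the 117, 68.0 and 21.4 FPKM of BGIOSGA032167.

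The most opposite patterns were those of BGIOSGA023890 (r = -0.967) and BGIOSGA000367 (r = -0.962 by the same measure). Without AT3 and AT3H1 these were -0.980 and -0.981. BGIOSGA023890 averaged 525 FPKM in BT1 and 504 FPKM in BT3, against 121 FPKM in BCK, and had 36.6 FPKM in BT3H3. The files and the text of the study give none of these 4 genes a name. In all, 519 genes had r over 0.9 with BGIOSGA032167 and 108 had r under -0.9, so a pattern of this kind was shared by many genes. Without AT3 and AT3H1 these numbers were 1356 and 244, and BGIOSGA022563 and BGIOSGA005578 then ranked 5 and 9. On unlogged FPKM over the 12 groups they ranked 107 and 586. In the size of the difference between BT3H3 and BT3, BGIOSGA032167 ranked 60 from the top of 26526 genes, within the top 0.226%. A high rank was built in, since this is a change that chose the gene, and it rests on 44 counts in BT3.

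**Figure D4:**
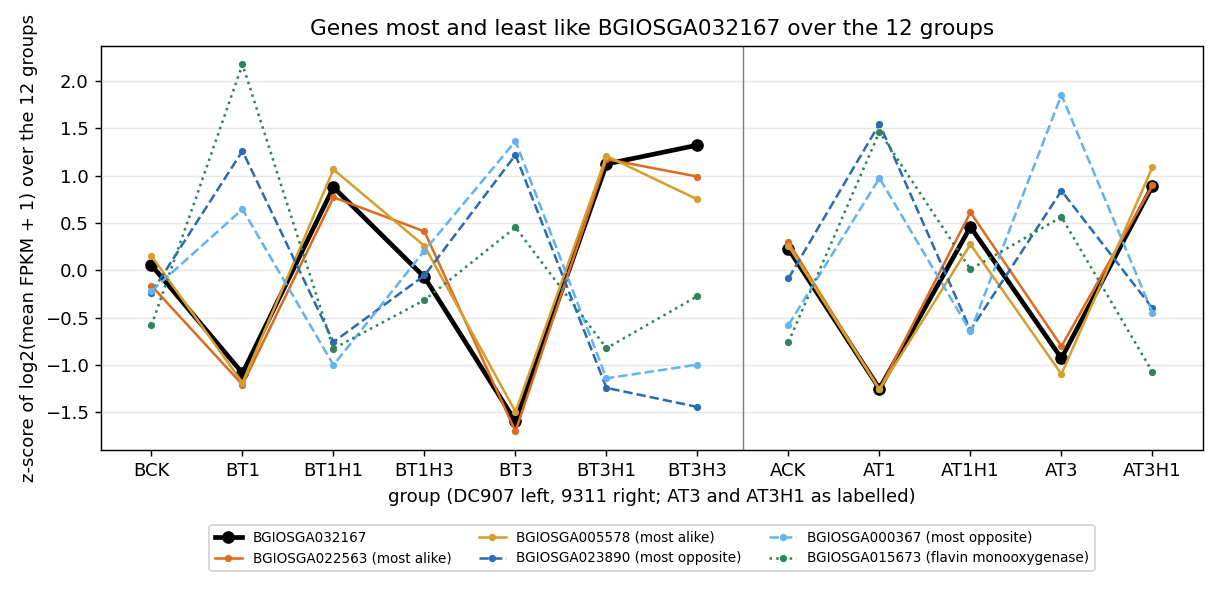
Group means of BGIOSGA032167, of the 2 genes most like it, the 2 most opposite genes and the flavin-containing monooxygenase gene BGIOSGA015673, as z-scores of log2(mean FPKM + 1) over the 12 groups (y axis), by group with DC907 left and 9311 right (AT3 and AT3H1 as labelled). Lines join groups for the eye only. BGIOSGA022563 (r = 0.981) and BGIOSGA005578 (r = 0.978) are low in the cold groups with BGIOSGA032167, while BGIOSGA023890 (r = -0.967) and BGIOSGA015673 (r = -0.757) are high there.

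The hormone genes that the text of the study identifies were set beside it, because the protein that gives the family its name moves auxin. The study chose these 10 genes on the same samples, so their direction is not independent evidence. Of the list, 9 genes were in the tables and 7 or 8 passed the filter on low counts in a comparison. Against the control of the cultivar, 5 of 7 rose in BT1 and 5 of 8 in BT3, where 13.0% and 17.2% of all genes rose. In 9311, 6 of 7 rose in AT1 and 3 of 8 in AT3 as labelled, where 16.8% and 10.2% of all genes rose. None of those tested fell in a cold group, and 0 of the 30 edgeR tests had a lower level at an unadjusted p under 0.05. The filter left out BGIOSGA016782 (CKX8, a cytokinin dehydrogenase) in AT1 and BT1, where DESeq2 gave log2 fold changes of -3.10 and -3.06 without a call (adjusted p = 0.069 and 0.12), and edgeR with all 36 libraries in 1 fit called it lower in AT1 (-3.17, adjusted p = 0.046). Of all genes, 9.81% fell in BT1, 16.7% in BT3, 13.7% in AT1 and 9.56% in AT3. The median log2 fold change of those tested was 2.95 in BT1, 1.71 in BT3, 3.22 in AT1 and 1.92 in AT3, against -0.05, -0.09, -0.13 and 0.02 over all genes tested. In the recovery groups 1 of 8 rose, in AT3H1 as labelled, where 6.55% of all genes rose and 7.7% fell. None of 7 was called by edgeR in the other recovery groups, where the shares of all genes that rose and fell were 0.0% and 0.0% in BT1H1 and in BT1H3, 3.54% and 3.87% in BT3H1, 8.38% and 9.73% in BT3H3, and 0.00878% and 0.0% in AT1H1. Of the 43 edgeR tests in recovery groups, 3 were higher and 6 lower at an unadjusted p under 0.05, and DESeq2 called 3 higher and 7 lower. That 1 gene was BGIOSGA025169, an NCED gene, with 103 ± 94.2 FPKM in AT3H1 and 1.49 ± 1.92 FPKM in ACK (SD, n = 3).

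The auxin gene of the list is BGIOSGA015673, which encodes a flavin-containing monooxygenase, an enzyme that may take part in auxin synthesis in rice. It had 46.8, 44.3 and 31.4 FPKM in BT1, against 2.21, 1.46 and 1.11 FPKM in BCK. Every BT1 library was thus far above every control library, and the log2 fold change was 4.79 (SE 0.49, edgeR adjusted p = 0.0075). In AT1 it had 14.8, 20.8 and 22.5 FPKM, against 1.06, 1.60 and 0.841 FPKM in ACK, a log2 fold change of 4.51 (SE 0.39, edgeR adjusted p = 0.0040). In BT3 it had 4.69, 8.33 and 6.07 FPKM, above all BCK libraries, with a log2 fold change of 1.93 (SE 0.46, edgeR adjusted p = 0.022). In AT3 as labelled it had 14.0, 0.748 and 6.94 FPKM, which overlapped ACK, and the log2 fold change of 2.74 (SE 1.04, edgeR adjusted p = 0.107) did not pass. Across the 12 group means its correlation with BGIOSGA032167 was -0.757, a description over groups that mainly separates cold from the rest.

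Genes of abscisic acid, the hormone of water deficit, made up most of the rest of the list. BGIOSGA029635 encodes CYP707A7, which breaks the hormone down, and had 86.1 ± 88.5 FPKM in BT1 and 36.0 ± 17.9 FPKM in BT3, against 4.46 ± 4.05 FPKM in BCK (SD, n = 3). It rose in BT1 (log2 fold change 4.25, SE 1.08, edgeR adjusted p = 0.034) and in BT3 (2.95, SE 0.88, edgeR adjusted p = 0.042). BGIOSGA025169, an NCED gene of abscisic acid synthesis, rose in BT3 by 6.31 on the log2 scale (SE 0.88, edgeR adjusted p = 0.0074), with a mean of 169 FPKM in BT3 and 2.29 FPKM in BCK. It did not pass in BT1 (3.44, edgeR adjusted p = 0.058), AT1 (5.07, adjusted p = 0.0506) or AT3 as labelled (4.59, adjusted p = 0.16). BGIOSGA013244, another NCED gene, did not pass in BT3 (0.44, edgeR adjusted p = 0.38). It rose in BT1 (1.94, adjusted p = 0.010), AT1 (1.98, adjusted p = 0.0062) and AT3 as labelled (1.36, adjusted p = 0.025). BGIOSGA026164, which encodes the signalling kinase SAPK2, rose in AT1 by 2.85 (SE 0.44, edgeR adjusted p = 0.0086), where it averaged 688 FPKM, against 134 FPKM in ACK. It did not pass in BT1 (1.80, edgeR adjusted p = 0.062), BT3 (0.98, adjusted p = 0.19) or AT3 as labelled (1.31, adjusted p = 0.0502). The ethylene response sensor genes BGIOSGA009308 and BGIOSGA009973 rose in all 4 cold groups, by 1.48 to 3.22 and by 0.92 to 2.74 on the log2 scale. Of the genes of the list with a mean of at least 1 FPKM in some group, SAPK2 (r = -0.893) and CYP707A7 (r = -0.869) had the patterns most opposite to BGIOSGA032167 over the 12 group means.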

How the data were processed

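The authors mapped paired reads of 150 bases with HISAT2 to the indica genome of Ensembl Plants release 41, assembled genes with Cufflinks and deposited a raw count per gene and library. They also deposited FPKM values, which equalled the count divided by library total and gene length. The submitters' processing notes also name DESeq. The counting program, strand setting and treatment of multi-mapped reads are not given in the sources used here. Groups came from the sample labels, and all 36 libraries were used.

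Counts were tested with edgeR 4.0.16 in R 4.3.3 (TMM, filterByExpr, robust quasi-likelihood fit, Benjamini-Hochberg adjustment over all genes, threshold 0.05), with 6 libraries per pairwise fit, 12 per interaction, and no block. Standard errors were derived from the estimate and its quasi-likelihood F statistic. FPKM were compared on a log2 scale after adding 0.1, by exact permutation within strata, and correlated after adding 1. The edgeR p-values set a fold change against the spread between the libraries of a group, moderated across all genes. The permutation p-values place the observed difference among those from exchanging labels within strata. The gene and the lists were chosen with earlier results of these data known. The genes named are BGIOSGA032167, the hormone genes that the study's text identifies, and the 2 genes most and the 2 least correlated with BGIOSGA032167. Other settings tried were DESeq2 1.42.0, a filter of 10 counts in each library, no filter, size factors by the median ratio, 1 fit of all 36 libraries, a replicate block, BCK as control of AT3 and AT3H1, other pseudocounts (1 and 0.01) and units, and leaving out each library (96 refits). Scripts were tested on simulated data with large changes, which checks the code and not the power to find the changes of this gene. None of the identifiers named from the study matched the reference gene table, which is of japonica rice, so no coordinates or sequences are given.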

Additional observations from a re-analysis of the deposited data

Results flagged for a closer look

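In DC907, the difference between 3 and 1 day of cold had opposite signs in the cold and after 3 days of recovery. In mean log2(FPKM + 0.1) it was 2.33 after 3 days of recovery (BT3H3 against BT1H3) and -1.99 in the cold (BT3 against BT1), and the libraries overlapped in neither comparison. The first exceeds the second by 4.32, over 12 libraries. This contrast was chosen after the values were seen and is made of the cold-to-recovery changes that chose the gene, so the difference was not tested. With any 1 library left out it was 3.32 to 5.01, the lowest of these without BT3 replicate 2, which holds 1 count of the gene. With a pseudocount of 1 FPKM it was 3.24.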

How the results depend on the processing

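Of 258 alternative values of the 19 tested results, 239 kept their direction and their side of the threshold, and 10 of the results did so in every alternative. For the contrasts that chose the gene only the size and sign were compared, since no call was read from them. All 220 alternative values moved by less than 1 SD between libraries, and 217 kept their sign, the exceptions being BT1H3 against BCK with 1 library left out (-0.63 to 0.29). Between groups of 3, leaving 1 library out cannot move a difference of means by 1 SD. For those values the shift is thus no sign of stability, and only their size and sign are read. BT3H3 against BT1H3 missed the threshold in edgeR without a filter (2.56, adjusted p = 0.0662), with the replicate block (2.32, adjusted p = 0.0503) and with all 36 libraries in 1 fit (2.62, adjusted p = 0.0571), and lay at 1.96 to 2.98 with 1 library left out. DESeq2 called BT1H3 against BT1H1 (-1.67, adjusted p = 0.000332), and no edgeR setting did (adjusted p = 0.073 to 0.581). The change between 1 and 3 days of recovery after 3 days of cold minus that after 1 day, chosen after the values were seen, was 2.18 in DESeq2 (adjusted p = 0.0208) and 1.59 to 2.63 with 1 library left out, where edgeR called it only without BT3H3 replicate 3 (adjusted p = 0.0326, against 0.0768 to 0.207 in the other 11 fits). The same contrast in log2(FPKM + 0.1) was 1.86 (exact permutation p = 0.075), and 1.32 to 2.55 with 1 library left out, with p = 0.01 without BT3H3 replicate 3. With 1 library left out, uncalled differences changed sign in BCK against ACK (-0.61 to 0.03; 0.027 without ACK replicate 2 and 0.030 without BCK replicate 1), BT1 against AT1 (-0.07 to 0.68; -0.066 without AT1 replicate 2), BT3H1 against AT3H1 as labelled (-0.12 to 0.24; -0.12 without AT3H1 replicate 2 and -0.11 without BT3H1 replicate 1) and BT3H3 against BT3H1 (-0.09 to 0.94; -0.094 without BT3H3 replicate 1). The contrast of 3 against 1 day of recovery lay at -1.11 to -0.50. Summed over the 10 comparisons with a control, edgeR called hormone genes as raised 20 times, DESeq2 30 times and the fit of all libraries 31 times, and as lowered 0, 7 and 5 times. The cause of these changes was not tested. By medians in place of means, BT1H1 ranked 10 and AT3H1 ranked 9. Median-ratio scaling moved the median of all genes by over 0.1 only in AT1H1 against AT1 (by -0.12). In no comparison did all 3 same-numbered pairs of libraries correlate above 0.1 in their deviations over all genes. No block was therefore used in the main fits, but this rule cannot exclude a pairing for BGIOSGA032167. The block lowered its standard error in some contrasts, as in BT3 against AT3 as labelled (1.29 to 0.60). In others the block raised it, as in BT3 against BT1 (0.90 to 0.99). The block changed no other call among the tested contrasts of BGIOSGA032167. The filter of 10 counts in every library gave no value where BT3 or AT3 entered. Leave-one-out fits were not run for the interactions with AT3 or AT3H1, and the changes that chose the gene were recomputed without each library on log2(FPKM + 0.1). Precision is limited by the spread between 3 libraries, and in BT3 also by low counts.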
